A study of Homo sapiens with 25 samples.

Results

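Long intergenic noncoding RNAs (lincRNAs) with a systematic LINC number were followed through degradation of TRRAP and inhibition of the checkpoint kinase CHK1 in the human lung carcinoma cell line A549. The set held every gene whose current symbol is LINC followed by digits alone and whose count was 10 or more in at least 3 of the 12 RNA libraries. This gave 185 of 28395 gene IDs, taken from 1321 LINC-numbered genes in the table, of which 650 had no count in any library and 486 had counts below that threshold. The cells carried an auxin-inducible degron (mAID) on TRRAP, and the study asked, by its title, how TRRAP bears on mitotic transcription and on sensitivity to CHK1 inhibition. Cells of all 4 groups were synchronized with thymidine (2 mM, 20 h) and harvested 4 h after its removal, per the labels' protocols. The groups received 5-Ph-IAA (1 µM, 6 h, to degrade TRRAP) together with the CHK1 inhibitor prexasertib (3 h), 5-Ph-IAA alone, prexasertib alone, or DMSO, with 3 libraries each. No RNA group served as a control of 5-Ph-IAA in cells without the degron. Effects of TRRAP loss and of 5-Ph-IAA itself therefore cannot be told apart. A genotype label of WT stands beside a growth protocol with mAID-TRRAP cells, and no label says whether the line is a single clone or whether the 3 libraries of a group came from separate cultures. The p-values therefore measure the spread between these libraries, which may be technical.

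LincRNAs are transcripts without a protein product, most of them made by RNA polymerase II, capped, spliced and often polyadenylated like mRNAs, from loci that lie between coding genes. As a class they are known for low and cell-type-restricted levels, and a minority has a described function, acting on neighbouring genes, in chromatin complexes or as binding partners of proteins and microRNAs. TRRAP is the large scaffold shared by the SAGA and TIP60 histone acetyltransferase complexes, which are recruited to promoters by transcription factors.

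The libraries were poly(A)-selected, a step that captures RNAs without a poly(A) tail poorly. Total counts ran from 10830048 to 17789482 per library, and 8 epithelial markers summed to between 7830 and 9978 CPM (counts scaled to a common library size) in every library. In the group means that sum was 8657 CPM with both drugs, 8352 CPM with 5-Ph-IAA, 9082 CPM with prexasertib and 9373 CPM with DMSO. Of 16 markers of blood, fibroblast, endothelial and neural cells, 15 had a count, and their sum lay between 110 and 140 CPM in every library.

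The members were sparsely counted. Their totals over the 12 libraries ran from 45 to 10101 counts with a median of 262, and 88 of the 185 had 10 or more counts in every library. The threshold itself separated genes of like counts. Just inside it stood 11 members that reached 10 counts in exactly 3 libraries, such as LINC00624 (96 counts in all) and LINC01322 (45 counts, of which 12, 6, 11 and 12 fell in the libraries numbered 3 of both drugs, 5-Ph-IAA, prexasertib and DMSO). Just outside it stood 12 LINC genes that reached it in exactly 2 libraries, such as LINC01511 (89 counts) and LINC02688 (83 counts). A filter on low values left 178 members for testing, and the 7 left out were LINC00574, LINC00629, LINC00957, LINC01269, LINC01315, LINC01484 and LINC02065. A member near the limit can pass through the libraries where it is high, in 1 group or in several, so counts over the 178 describe those genes and not the whole set. LINC01204 and LINC00706, both called higher below, reached 10 counts only in libraries with 5-Ph-IAA. Other members called higher against DMSO, such as LINC03098, LINC01913 and LINC01474, reached 10 counts only in libraries that received a drug. The rises of all these members are thus not independent of the threshold.

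The word intergenic held for most members. The RefSeq annotation of GRCh38.p14 lists all 185 as lncRNA, and 169 did not overlap a coding gene's span. The other 16 did, among them LINC00473, which lies inside PDE10A on the same strand. The transcript starts of 3 members lay within 2 kb of a coding gene's start on the opposite strand (LINC00205 beside POFUT2, LINC00685 beside GTPBP6, LINC00857 beside ANXA11). A further 12 followed a coding gene on the same strand within 10 kb. The strand setting of the counts is not given in the sources used here, so the values of overlapping members are uncertain. A gap of over 10 kb separated 114 members from the nearest coding gene.

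The share of each library that fell on the 185 members differed between cells with and without 5-Ph-IAA. It was 0.111%, 0.111% and 0.105% of all gene counts in the libraries with both drugs and 0.117%, 0.119% and 0.110% in those with 5-Ph-IAA alone. It was 0.0856%, 0.0873% and 0.0807% with prexasertib alone and 0.0877%, 0.0886% and 0.0855% with DMSO. Every library with 5-Ph-IAA lay above every library without it. The group means were 0.109% ± 0.00318 with both drugs, 0.115% ± 0.00464 with 5-Ph-IAA, 0.0845% ± 0.00345 with prexasertib and 0.0873% ± 0.00160 with DMSO (SD, n = 3 each). Without the 10 members of highest total count, the means were 0.0682%, 0.0708%, 0.0517% and 0.0512% in the same order. No p-value is given for this sum, and TMM scaling factors, which correct for composition, were themselves higher with 5-Ph-IAA (1.02 to 1.10) than without it (0.925 to 0.978). In bulk RNA, a change in the number of cells of one kind or cycle phase and a change in RNA per cell cannot be told apart.

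**Figure D1:**
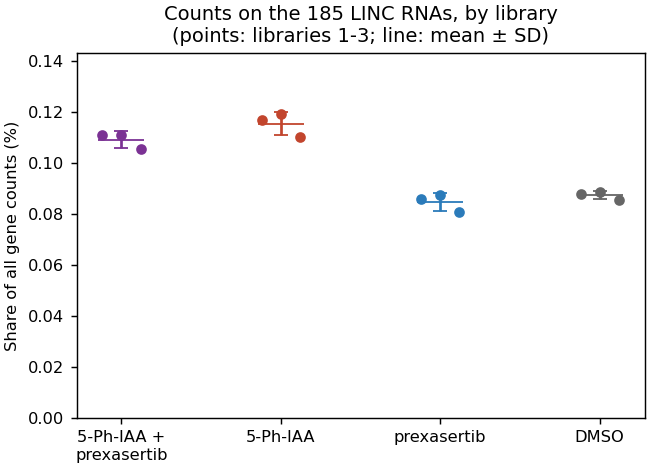
Share of all gene counts (%) on the 185 LINC RNAs in each library, by group, with the mean and SD of 3 libraries. The 6 libraries with 5-Ph-IAA lie at 0.105% or above and the 6 without it at 0.0886% or below.

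With 5-Ph-IAA alone, 28 of the 178 tested lincRNAs rose and none fell against DMSO, against a background of 9.65% of all 14658 genes called higher and 12.2% called lower (edgeR quasi-likelihood test, Benjamini-Hochberg adjusted p under 0.05). The members called higher were 15.7% of those tested. DESeq2 likewise called 0 lower, and 2 members were lower at an unadjusted p under 0.05. The libraries numbered 3 deviated together, whereas pairing within numbers 1 and 2 was not apparent. A fit with the number as a block called 51 higher and 4 lower, against 19% and 23.6% of all genes. The median log2 fold change was 0.31 over the members and 0.01 over all genes. Scaling by library size alone, which moved the median of all genes to 0.16, gave 43 higher, against 20.6% of all genes. Without library 2 of 5-Ph-IAA, the deepest of the 12, the count was 17. Here and below, counts from DESeq2, from unadjusted p or from fits without a library have no share over all genes beside them. Those counts do not show whether lincRNAs moved more than other genes.

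LINC01270 (gene ID 284751, chr20:50292720-50314919) had the smallest adjusted p among them. It stood at 19.9, 18.9 and 14.1 CPM in the 5-Ph-IAA libraries, against 8.36, 9.59 and 7.86 CPM in the DMSO libraries. All 3 treated libraries lay above all 3 controls, with a log2 fold change of 1.04 ± 0.18 (SE; edgeR adjusted p = 0.000999). Members named for their change or adjusted p were picked among calls without overlap between groups, so this trait adds no support. LINC01061 (chr4:119405523-119410660) had 5.57, 6.06 and 4.77 CPM with 5-Ph-IAA, against 2.49, 2.90 and 1.63 CPM with DMSO (log2 fold change 1.23 ± 0.24; edgeR adjusted p = 0.0029). LINC00673 (chr17:72403322-72592804), studied in several carcinomas and linked to turnover of the phosphatase PTPN11 in pancreatic cells, changed less. Its levels were 27.4, 28.7 and 29.7 CPM with 5-Ph-IAA, against 19.4, 17.4 and 23.1 CPM with DMSO, and the groups did not overlap (log2 fold change 0.52 ± 0.11; edgeR adjusted p = 0.0035). LINC01348 (chr1:235065474-235069818) had 7.87, 7.14 and 6.29 CPM with 5-Ph-IAA, against 2.56, 2.73 and 2.96 CPM with DMSO (log2 fold change 1.37 ± 0.29; edgeR adjusted p = 0.0046).

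The promoters of the 3 members with the smallest adjusted p in this comparison are shown, each taken as 250 bases before to 50 bases after the start. Of these members, LINC01061 was not called in both drugs against prexasertib (log2 fold change 0.18 ± 0.24, edgeR adjusted p = 0.66). Capitals mark matches, on either strand, to any of 7 motifs searched. These were TTTGAA and its variant TTCGAA, the E-box CACGTG, the letters TGACGT of CREB sites, the AP-1 letters TGAGTCA or else TGACTCA, the TATA box as TATAAA, and the ETS letters CCGGAAG. The sequences are from RefSeq, GRCh38.p14, printed 5′ to 3′ along the transcript: LINC01270 at chr20:50292470-50292769 (plus strand), LINC01061 at chr4:119410611-119410910 (minus strand) and LINC00673 at chr17:72592755-72593054 (minus strand).
LINC01270: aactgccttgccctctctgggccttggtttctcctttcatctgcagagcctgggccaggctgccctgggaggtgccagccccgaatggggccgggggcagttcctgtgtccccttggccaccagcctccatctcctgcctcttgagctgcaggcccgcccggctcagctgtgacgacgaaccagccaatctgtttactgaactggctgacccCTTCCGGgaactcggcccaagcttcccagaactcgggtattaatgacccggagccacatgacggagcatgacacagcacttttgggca
LINC01061: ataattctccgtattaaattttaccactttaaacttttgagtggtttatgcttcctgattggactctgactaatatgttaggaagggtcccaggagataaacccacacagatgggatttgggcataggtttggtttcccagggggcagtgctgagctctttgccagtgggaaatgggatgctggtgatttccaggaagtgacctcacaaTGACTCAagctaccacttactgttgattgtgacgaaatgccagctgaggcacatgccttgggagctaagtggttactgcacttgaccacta
LINC00673: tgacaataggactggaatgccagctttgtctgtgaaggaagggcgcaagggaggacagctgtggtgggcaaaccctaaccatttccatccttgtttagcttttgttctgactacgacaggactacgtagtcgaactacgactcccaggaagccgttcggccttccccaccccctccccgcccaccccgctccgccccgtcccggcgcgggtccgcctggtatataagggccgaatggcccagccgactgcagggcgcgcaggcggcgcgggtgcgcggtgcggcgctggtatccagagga

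LINC01270 held the reverse complement of CCGGAAG, the core letters of ETS sites, LINC01061 held TGACTCA, the letters of AP-1 sites, and LINC00673 held none of the 7 in this window. RefSeq promoters matched 137 of the 185 members, in 154 windows. CCGGAAG stood in 14.3% of the member windows, against 16.0% of those of tested coding genes and 10.3% of all 35116 promoters. The AP-1 letters stood in 8.44% of the member windows, against 3.73% and 4.95%. TATAAA stood in 14.9% of the member windows, against 6.28% and 11.5%. Mean GC content was 57.8% for members, 63.7% for tested coding genes and 57.5% for all promoters. The motif shares were not adjusted for this difference. Over the 23 windows of members that rose with 5-Ph-IAA, the AP-1 letters were in 3, TATAAA in 4 and CCGGAAG in 4. TTTGAA, the letters of the cell cycle homology region through which MuvB complexes bind mitotic promoters, stood in 9.74% of the member windows, against 10.4% and 15.2%, and in 3 of those 23. Such matches describe letters and do not show that a factor binds.

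Larger fold changes came from RNAs with fewer counts. LINC01647 (chr1:11609531-11613355) had 3.93, 4.31 and 2.88 CPM with 5-Ph-IAA, against 1.36, 0.616 and 0.311 CPM with DMSO (log2 fold change 2.26 ± 0.65; edgeR adjusted p = 0.026). LINC01204 (chrX:45505388-45527239) had 0.965, 0.821 and 0.909 CPM with 5-Ph-IAA, against 0.226, 0.264 and 0.0778 CPM with DMSO, from a total of 76 counts in all libraries (log2 fold change 2.20 ± 0.57; edgeR adjusted p = 0.014). It entered the set only through libraries with 5-Ph-IAA, so its rise is no support for a shift of the set. LINC01554 (chr5:95852232-95860133), described in liver cancer as a regulator of the glycolytic enzyme PKM2, was better counted. It had 14.6, 11.0 and 9.17 CPM with 5-Ph-IAA, against 5.12, 4.31 and 1.71 CPM with DMSO (log2 fold change 1.64 ± 0.37; edgeR adjusted p = 0.0073). LINC00689 (chr7:159008354-159026238) had 2.97, 2.98 and 1.82 CPM with 5-Ph-IAA, against 0.829, 0.704 and 0.778 CPM with DMSO (log2 fold change 1.74 ± 0.38; edgeR adjusted p = 0.0059). In none of these 4 did the groups overlap, which was a condition for naming them. The call of LINC01204 ended without library 3 of DMSO (edgeR adjusted p = 0.0565), and that of LINC01647 without library 2 or 3 of DMSO or 1 or 2 of 5-Ph-IAA (adjusted p up to 0.0807). LINC01913 (log2 fold change 1.79 ± 0.60; edgeR adjusted p = 0.047) was the weakest of the named calls and was lost in 12 of the alternative fits, with adjusted p up to 0.16. Of all 28 members called, LINC03098 was the 1 whose groups overlapped. The share of calls without overlap over all genes is not given.

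**Figure D2:**
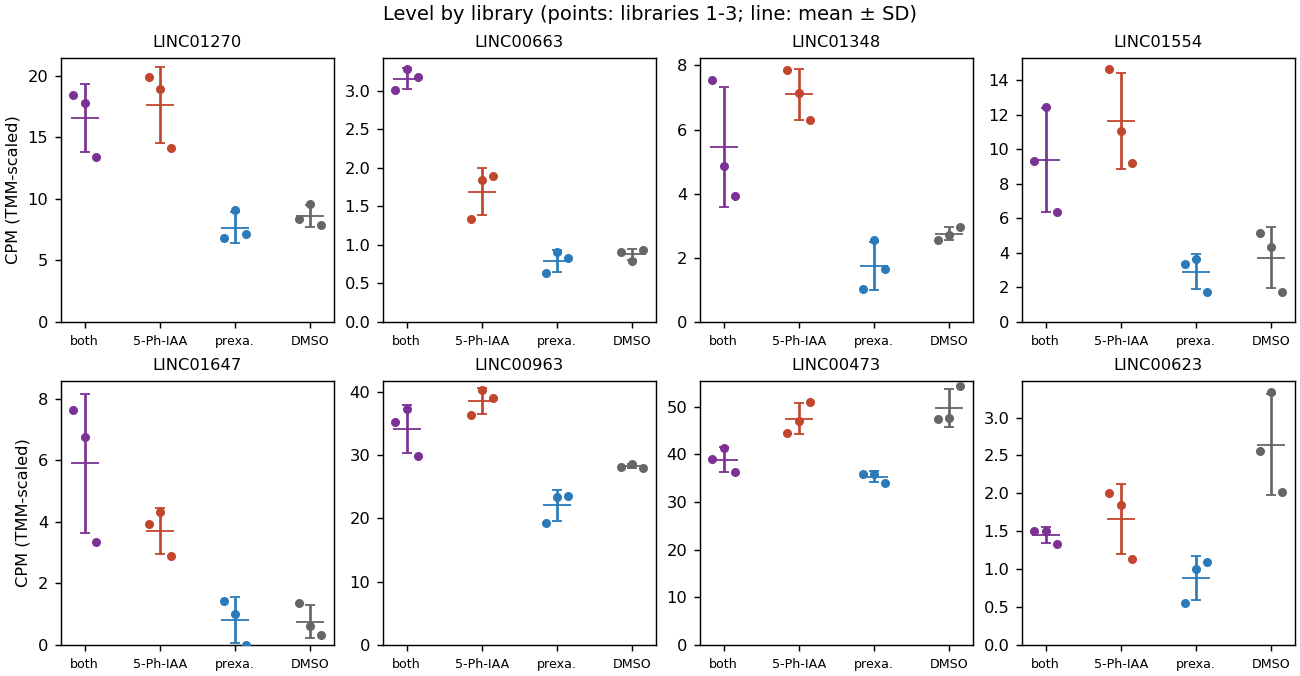
Level (CPM on TMM-scaled library sizes) of 8 LINC RNAs in each library, in cells given both drugs, 5-Ph-IAA, prexasertib or DMSO, with the mean and SD of 3 libraries. LINC01270, LINC01348, LINC01554, LINC01647 and LINC00963 are higher in both groups with 5-Ph-IAA, LINC00663 is highest with both drugs, and LINC00473 and LINC00623 are lowest with prexasertib.

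When prexasertib was present in both arms, adding 5-Ph-IAA again raised lincRNAs and lowered none: 20 rose and 0 fell, against backgrounds of 7.85% and 10.4% of all genes (edgeR). At an unadjusted p under 0.05, 33 were higher and 2 lower, and DESeq2 called 22 and 0. The replicate block gave 32 and 3, against 17.2% and 19.9% of all genes. Without library 2 of both drugs 12 rose, and without library 3 of prexasertib 1 fell. The median log2 fold change was 0.21.

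LINC00663 (gene ID 284440, chr19:19756371-19776413) led this comparison. It had 3.02, 3.28 and 3.19 CPM with both drugs, against 0.638, 0.908 and 0.824 CPM with prexasertib (log2 fold change 1.99 ± 0.29; edgeR adjusted p = 0.00042). Its levels with 5-Ph-IAA alone, 1.34, 1.85 and 1.89 CPM, lay between the 2 groups and touched neither. LINC01270 had 18.4, 17.8 and 13.4 CPM with both drugs, against 6.78, 9.08 and 7.14 CPM with prexasertib (log2 fold change 1.11 ± 0.18; edgeR adjusted p = 0.00086). LINC00963 (chr9:129488660-129513686), first described in prostate cancer progressing to androgen independence, had 35.3, 37.3 and 29.9 CPM with both drugs, against 19.3, 23.3 and 23.6 CPM with prexasertib (log2 fold change 0.63 ± 0.11; edgeR adjusted p = 0.0012). In these 3 all libraries with both drugs lay above all libraries with prexasertib, which was a condition for naming them. LINC01348 (log2 fold change 1.66 ± 0.31; edgeR adjusted p = 0.0025), LINC02902 (1.66 ± 0.36; adjusted p = 0.0063), LINC01647 (2.82 ± 0.64; adjusted p = 0.0095) and LINC01554 (1.68 ± 0.39; adjusted p = 0.0096) also rose in this test. LINC01204 and LINC00706 did so with adjusted p of 0.029 and 0.039, and both calls were lost with DESeq2 and on leaving out single libraries of prexasertib or of both drugs (edgeR adjusted p up to 0.0874 and 0.144). Both had entered the set only through libraries with 5-Ph-IAA.

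The 2 comparisons of 5-Ph-IAA, with and without prexasertib, use no library in common. Of the 28 and 20 members called in them, 16 were shared, which is 57.1% of the 28 and 80% of the 20. All 28 had a positive log2 fold change in the comparison within prexasertib, and all 20 had one in the comparison without it. Over all genes, 754 were called higher in both, which is 53.3% of 1414 and 65.6% of 1150, and 1385 and 1126 of these were positive in the other comparison. Among the tested members, 103 were positive in both comparisons and 35 negative in both. Over all 14658 genes, 5988 were positive in both and 5613 negative in both. Joint signs of coding genes of like level are not given. LINC01270, LINC00673, LINC01348, LINC01554, LINC01647, LINC01204, LINC00963, LINC00663 and LINC00667 were among the 16.

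**Figure D3:**
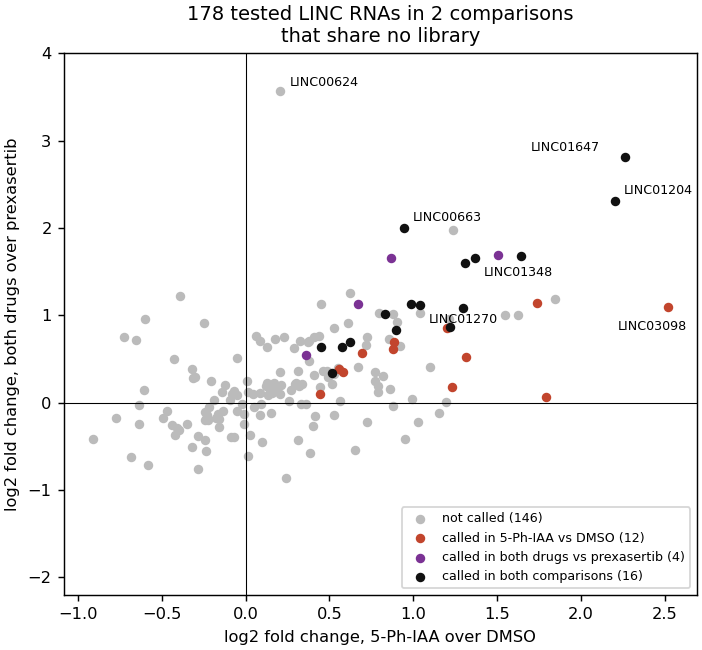
Log2 fold change of the 178 tested LINC RNAs, with 5-Ph-IAA over DMSO on the x axis and with both drugs over prexasertib on the y axis; the comparisons share no library. Colour marks the 16 called in both, the 12 and 4 called in 1 of them, and the 146 called in neither; every called point has a positive value on both axes.

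Coding genes of like count level also shifted upwards with 5-Ph-IAA. Weighted to the members' distribution in bins of 0.5 in mean log2 CPM, coding genes had a median log2 fold change of 0.26 in 5-Ph-IAA against DMSO, beside 0.31 for the members, and 69.6% of them had a positive value, beside 69.7% of the members. In both drugs against prexasertib the medians were 0.27 for like-level coding genes and 0.21 for the members, with 70.1% and 68.5% positive. Of the like-level coding genes 9.26% were called higher and 2.70% lower with 5-Ph-IAA against DMSO, beside 15.7% and 0 of the members. Within prexasertib, 8.17% and 1.83% of like-level coding genes were called, beside 11.2% and 0 of the members. These shares are descriptions without a test.

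The calls were not spread evenly over levels. In 5-Ph-IAA against DMSO, 3 of the 60 members of lowest mean level were called, 8 of the middle 59 and 17 of the highest 59, with medians of 0.31, 0.33 and 0.30. Between 0 and 1 in mean log2 CPM, 7.14% of the members and 7.05% of coding genes were called higher. Between 2 and 3, 7 of 28 members (25%) and 9.84% of coding genes were called. From 3 to 4 these were 5 of 17 members (29.4%) and 14.0% of coding genes, and from 4 to 5 they were 5 of 8 members and 12.3% of coding genes. None of the 6 members above 5 was called, among them LINC00674 and LINC01234.

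**Figure D4:**
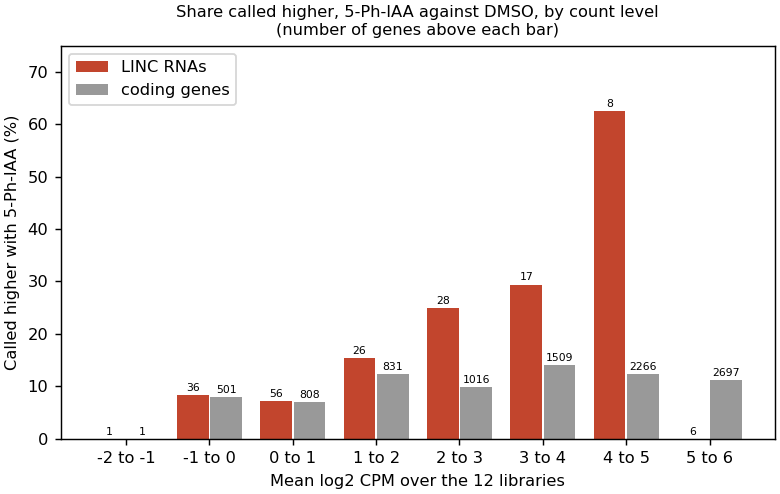
Share (%) of LINC RNAs and of coding genes called higher in 5-Ph-IAA against DMSO, in bins of 1 in mean log2 CPM over the 12 libraries, with the number of genes above each bar. Between 0 and 1 the shares are 7.14% and 7.05%, and between 4 and 5 they are 5 of 8 members and 12.3% of coding genes.

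Noncoding RNAs named otherwise were called in both directions. Of 694 tested lncRNAs without a LINC number, 66 rose and 33 fell in 5-Ph-IAA against DMSO (edgeR), with a median log2 fold change of 0.20. These are 9.51% and 4.76% of them, beside backgrounds of 9.65% and 12.2% of all genes. Of 104 tested genes that once had a LINC symbol and now carry another name, 7 rose (6.73%) and 11 fell (10.6%). In a list of 42 well-studied lncRNAs, 34 were tested; 1 rose and 6 fell with 5-Ph-IAA, beside the same backgrounds. LUCAT1, a stress-induced lncRNA, rose (mean 13.6 CPM with 5-Ph-IAA and 9.16 CPM with DMSO; log2 fold change 0.57 ± 0.18; edgeR adjusted p = 0.038). CHASERR, which restrains its neighbour CHD2, fell (12.3 and 23.9 CPM; log2 fold change -0.96 ± 0.13; edgeR adjusted p = 0.00026). The snoRNA hosts GAS5 (48.5 and 75.3 CPM; edgeR adjusted p = 0.0084) and ZFAS1 (54.1 and 71.4 CPM; edgeR adjusted p = 0.023) fell, as did DANCR, OIP5-AS1 and CRNDE.

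Prexasertib alone gave few calls among lincRNAs, as it did among all genes. Against DMSO 0 rose and 3 fell (1.69%), with backgrounds of 2.36% and 2.37% of all genes (edgeR). Of like-level coding genes, 1.08% were called higher and 1.03% lower. At an unadjusted p under 0.05, 15 were higher and 10 lower, and DESeq2 called 1 higher and 2 lower. The replicate block gave 9 higher and 8 lower, against 8.37% and 9.77% of all genes. Without library 3 of prexasertib 1 rose, and without library 1 or 2 of either group 1 fell. The median log2 fold change was 0.03 over the members and -0.04 over like-level coding genes.

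LINC00473 (gene ID 90632, chr6:165924048-165988039) had the smallest adjusted p in this comparison. It is known as a target of cAMP and CREB signalling and is described at high levels in lung cancers that have lost the kinase LKB1. It had 36.0, 36.0 and 34.0 CPM with prexasertib, against 47.5, 47.6 and 54.4 CPM with DMSO (log2 fold change -0.50 ± 0.09; edgeR adjusted p = 0.0064). All prexasertib libraries lay below all DMSO libraries, as the naming of members by adjusted p required. With both drugs it had 39.0, 41.4 and 36.2 CPM, or -0.36 ± 0.09 on the log2 scale against DMSO (edgeR adjusted p = 0.0096). With 5-Ph-IAA alone it had 44.5, 47.1 and 51.0 CPM, and the log2 fold change of -0.07 ± 0.09 against DMSO was not called (edgeR adjusted p = 0.63). Both drugs against 5-Ph-IAA gave -0.29 ± 0.09 (edgeR adjusted p = 0.12, and 0.010 with the block). PDE10A, the phosphodiesterase gene in whose span it lies, moved otherwise: its log2 fold change was -0.07 with prexasertib (edgeR adjusted p = 0.84) and -0.54 with 5-Ph-IAA against DMSO (edgeR adjusted p = 0.0047).

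LINC00623 (chr1:120912238-120955811) had 0.558, 0.999 and 1.10 CPM with prexasertib, against 2.56, 3.34 and 2.02 CPM with DMSO (log2 fold change -1.58 ± 0.35; edgeR adjusted p = 0.021). The groups did not overlap, which was again a condition for naming it. LINC00624 (chr1:147382192-147517875) had 1, 0 and 0 counts with prexasertib, against 9, 14 and 8 counts with DMSO (edgeR adjusted p = 0.045). On TMM-scaled library sizes the ratio for LINC00624 was 0.0351, with a 95% counting interval of 0.000861 to 0.211. With both drugs this RNA had 1, 11 and 5 counts and with 5-Ph-IAA 7, 31 and 9, so these groups scattered widely. Both genes lie in parts of chromosome 1 that hold near-identical copies, so reads may be split between loci and both values are uncertain. Leaving out library 1 or 2 of prexasertib or of DMSO ended either call, and leaving out library 3 of either group ended that of LINC00624. The LINC00624 call also ended without library 1 of 5-Ph-IAA or library 3 of both drugs, which lie outside this comparison. In these fits the edgeR adjusted p was up to 0.106 for LINC00623 and 0.155 for LINC00624.

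The promoters of LINC00473 and LINC00623 are shown as those of the members with the smallest adjusted p in this comparison; none is printed for LINC00624. Capitals mark TGACGT, the letters at the core of CREB sites, on either strand. They are from RefSeq, GRCh38.p14, at chr6:165987990-165988289 (minus strand) and chr1:120911988-120912287 (plus strand, the first of 2 windows for this gene).
LINC00473: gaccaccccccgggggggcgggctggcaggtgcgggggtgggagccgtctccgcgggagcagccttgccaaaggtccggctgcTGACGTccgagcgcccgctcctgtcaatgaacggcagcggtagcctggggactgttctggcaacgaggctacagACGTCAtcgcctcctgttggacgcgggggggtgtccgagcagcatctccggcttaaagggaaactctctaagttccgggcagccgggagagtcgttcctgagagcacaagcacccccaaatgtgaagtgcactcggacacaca
LINC00623: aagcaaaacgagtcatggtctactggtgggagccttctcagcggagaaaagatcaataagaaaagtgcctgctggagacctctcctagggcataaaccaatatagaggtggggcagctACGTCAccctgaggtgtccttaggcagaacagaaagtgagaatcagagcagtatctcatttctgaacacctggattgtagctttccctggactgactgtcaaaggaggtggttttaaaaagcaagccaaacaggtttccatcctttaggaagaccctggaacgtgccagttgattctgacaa

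LINC00473 held 2 matches and the first window of LINC00623 held 1, whereas its second window held 0. TGACGT stood in 14.3% of the 154 member windows, against 10.1% of the windows of tested coding genes and 7.98% of all promoters. It stood in 1 of the 23 windows of members that rose with 5-Ph-IAA.

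Adding prexasertib to 5-Ph-IAA gave no call among the lincRNAs: 0 rose and 0 fell against 5-Ph-IAA alone, with backgrounds of 1.17% and 1.26% (edgeR). At an unadjusted p under 0.05, 6 were higher and 4 lower, DESeq2 called 1 higher and 0 lower, and without library 3 of 5-Ph-IAA edgeR called 1 lower. The replicate block gave 3 higher and 4 lower, against 7.8% and 7.7% of all genes. LINC00663 was among those, with 3.02, 3.28 and 3.19 CPM with both drugs, against 1.34, 1.85 and 1.89 CPM with 5-Ph-IAA (log2 fold change 0.89 ± 0.26; edgeR adjusted p = 0.096, and 0.029 with the block).

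The test of whether the effects of the 2 drugs depend on each other called 0 members and 0 of all genes (edgeR, 0% background in either direction). DESeq2 and the replicate block also called 0 members, and 4 were positive and 2 negative at an unadjusted p under 0.05. LINC01061 had the smallest p. Its log2 fold change with 5-Ph-IAA was 0.18 ± 0.24 within prexasertib (4.73, 4.26 and 3.93 CPM with both drugs, against 4.47, 4.00 and 2.93 CPM with prexasertib) and 1.23 ± 0.24 against DMSO. The difference of these, -1.05 ± 0.34, did not pass (edgeR adjusted p = 1.00).

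Both drugs together, against DMSO, gave the largest number of calls, 37 higher and 4 lower, with backgrounds of 11.8% and 14.2% of all genes (edgeR). The members called higher were 20.8% of those tested, beside 12.5% of like-level coding genes, and those called lower were 2.25%, beside 4.08%. The replicate block gave 53 higher and 8 lower, against 21.2% and 23.5% of all genes. Without library 1 of both drugs 20 rose and 1 fell, and without library 1 of DMSO 24 rose and 1 fell. Without library 2 of either group 2 fell. This comparison shares its controls with those of each drug alone.

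LINC00667 (chr18:5238100-5246508) had 15.5, 16.1 and 13.4 CPM with both drugs, against 7.91, 8.27 and 8.64 CPM with DMSO (log2 fold change 0.86 ± 0.16; edgeR adjusted p = 0.0017). LINC00205 (chr21:45288052-45297354), whose start lies 157 bp from that of POFUT2, had 42.7, 45.8 and 39.4 CPM with both drugs, against 25.8, 28.8 and 22.2 CPM with DMSO (log2 fold change 0.74 ± 0.14; edgeR adjusted p = 0.0018). The groups of both RNAs stood apart, as the naming of members by adjusted p required. LINC03098 (log2 fold change 3.15 ± 0.79; edgeR adjusted p = 0.010) and LINC00706 (1.96 ± 0.53; adjusted p = 0.015) had larger changes from 112 and 90 counts in all libraries. Neither reached 10 counts in a DMSO library, so neither rise is independent of the threshold for members. The 4 that fell were LINC00473 and 3 others. LINC01843 had 1.58, 1.95 and 2.52 CPM with both drugs, against 3.84, 3.34 and 4.28 CPM with DMSO (log2 fold change -0.92 ± 0.27; edgeR adjusted p = 0.024). LINC01000 had 11.4, 11.0 and 9.86 CPM with both drugs, against 17.6, 23.2 and 15.6 CPM with DMSO (log2 fold change -0.81 ± 0.26; edgeR adjusted p = 0.035). LINC00294 had 31.5, 34.7 and 28.2 CPM with both drugs, against 50.8, 45.4 and 36.7 CPM with DMSO (log2 fold change -0.50 ± 0.15; edgeR adjusted p = 0.025). In all 4 every library with both drugs lay below every DMSO library, which was a condition for naming them here. The calls of LINC01843, LINC01000 and LINC00294 each ended without library 1 of either group, among others (edgeR adjusted p up to 0.101, 0.128 and 0.107), and those of LINC01000 and LINC00294 also when libraries were scaled by size alone.

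**Figure D5:**
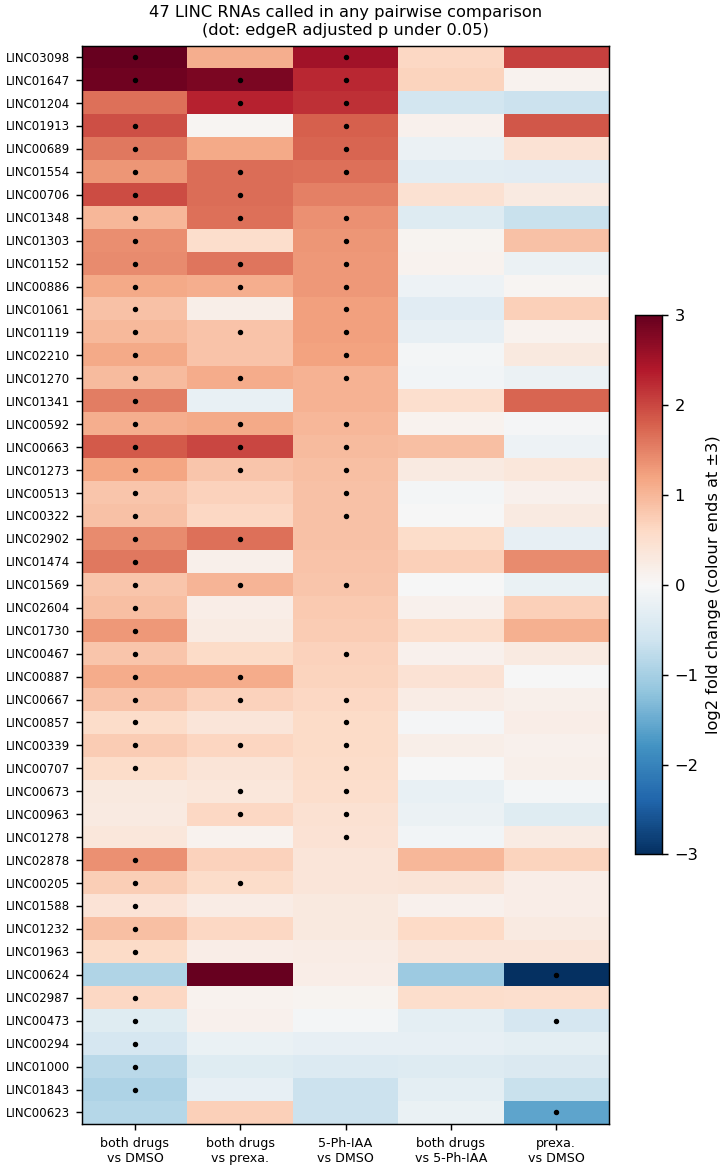
Log2 fold change of the 47 LINC RNAs called in at least 1 pairwise comparison, in 5 comparisons, with the colour scale ending at 3 in either direction and a dot where the edgeR adjusted p is under 0.05. Red predominates in the 3 columns where the first-named cells received 5-Ph-IAA and the second did not, and few dots stand in the columns for prexasertib against DMSO (3) or for both drugs against 5-Ph-IAA (0).

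The 10 members of highest total count included the pair with the highest counts, whose levels overlapped between groups. LINC00674 had 70.1, 69.8 and 64.4 CPM with 5-Ph-IAA, against 67.0, 65.3 and 59.4 CPM with DMSO, and LINC01234, a lincRNA described in gastric and lung cancer, had 62.9, 58.2 and 54.0 CPM, against 63.3, 55.7 and 58.7 CPM. Neither was called (log2 fold changes 0.09 ± 0.08 and -0.02 ± 0.09; edgeR adjusted p = 0.46 and 0.90). LINC01433 varied with the library number: the libraries numbered 3 had 33.1 CPM with both drugs, 34.7 CPM with 5-Ph-IAA, 27.8 CPM with prexasertib and 27.0 CPM with DMSO, and in each group they were the highest. Its log2 fold change in 5-Ph-IAA against DMSO was 0.38 ± 0.24 (edgeR adjusted p = 0.30, and 0.0017 with the block). LINC02693 had 40.1, 51.2 and 54.2 CPM with 5-Ph-IAA, against 34.5, 34.7 and 47.3 CPM with DMSO (log2 fold change 0.32 ± 0.15; edgeR adjusted p = 0.15, and 0.00099 with the block). LINC00707 had 27.2, 29.1 and 26.2 CPM with 5-Ph-IAA, against 21.7, 19.2 and 15.3 CPM with DMSO, without overlap (log2 fold change 0.56 ± 0.14; edgeR adjusted p = 0.014). LINC03040 was not called in any comparison.

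Of 20 lincRNAs listed for a described role, 15 were members, all tested. In 5-Ph-IAA against DMSO 2 rose and 0 fell, against the 9.65% and 12.2% above; DESeq2 gave the same counts, and 4 and 1 passed an unadjusted p under 0.05. LINC00963 was 1 of them (log2 fold change 0.45 ± 0.10; edgeR adjusted p = 0.0074). LINC00467, described in neuroblastoma as repressed by MYCN, had 11.5, 10.6 and 13.0 CPM with 5-Ph-IAA, against 9.04, 5.10 and 7.39 CPM with DMSO, without overlap (log2 fold change 0.70 ± 0.19; edgeR adjusted p = 0.019). LINC00261, which is transcribed beside the endoderm factor FOXA2 and is described as a tumour suppressor in lung adenocarcinoma, had 2.08, 1.75 and 2.12 CPM with 5-Ph-IAA, against 3.09, 2.81 and 4.20 CPM with DMSO. All 3 treated libraries lay below the controls, and the log2 fold change of -0.77 ± 0.28 was not called (edgeR adjusted p = 0.064, and 0.022 with the block). FOXA2 itself fell in the same comparison (log2 fold change -0.59; edgeR adjusted p = 0.0051). LINC00511, described in breast cancer, had 1.78, 1.85 and 3.64 CPM with 5-Ph-IAA, against 0.829, 1.58 and 1.40 CPM with DMSO (log2 fold change 0.92 ± 0.37; edgeR adjusted p = 0.096, and 0.024 with the block). LINC00472 (edgeR adjusted p = 0.26), LINC00662 (0.95), LINC00839 (0.63), LINC00342 (0.60), LINC00941 (0.31), LINC00942 (0.23), LINC01116 (0.84) and LINC01503 (0.76) were not called there, nor was LINC00205 (0.083, and 0.00095 with the block). LINC00460, LINC01133, LINC00665 and LINC00520 were in the table below the threshold.

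Among 6 tested lncRNAs linked to p53, 0 were called with 5-Ph-IAA or with prexasertib against DMSO by edgeR or DESeq2, and 0 passed an unadjusted p under 0.05. PURPL, a p53-induced RNA formerly numbered in the LINC series, averaged 8.43 CPM with 5-Ph-IAA and 7.85 CPM with DMSO (log2 fold change 0.11 ± 0.28; edgeR adjusted p = 0.82). With prexasertib it averaged 10.3 CPM (log2 fold change 0.39 ± 0.28 against DMSO; edgeR adjusted p = 0.55). TP53TG1 was called higher with both drugs against DMSO (22.3 and 17.5 CPM; log2 fold change 0.35 ± 0.10; edgeR adjusted p = 0.026). In the list of well-studied lncRNAs, prexasertib against DMSO gave 3 higher and 0 lower of 34, beside 2.36% and 2.37% of all genes (the same with DESeq2, and 5 and 2 at an unadjusted p under 0.05): NORAD, which sequesters PUMILIO proteins and is induced by DNA damage (361 and 256 CPM; log2 fold change 0.50 ± 0.10; edgeR adjusted p = 0.012), TUG1 (184 and 138 CPM; 0.42 ± 0.11; adjusted p = 0.046) and FGD5-AS1 (0.26 ± 0.07; adjusted p = 0.041).

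Neighbouring coding genes were called in either direction. Of 134 members with a tested nearest coding gene, 65 had the same sign as that gene in 5-Ph-IAA against DMSO. Of the 28 members that rose, 17 had a tested neighbour, with CEBPB counted for both LINC01270 and LINC01273; 6 of these neighbours had a positive log2 fold change, 2 were called higher and 5 lower, beside 9.65% and 12.2% of all genes, and their median was -0.12. The neighbours called lower included TFAP4 beside LINC01569 (log2 fold change -1.83; edgeR adjusted p = 2.3e-06), PKDCC beside LINC01913 (-1.07; adjusted p = 1.1e-05) and TOMM20 beside LINC01348 (-0.43; adjusted p = 0.0063). PRKCH beside LINC01303 was called higher (1.08; edgeR adjusted p = 0.0076). Members that lie close together were not always called alike: LINC01270 rose, whereas LINC01271, which overlaps it on the opposite strand, stood at 0.44 on the log2 scale (edgeR adjusted p = 0.48), and LINC00667 rose, whereas LINC00526, 71 bp away, had 0.23 (edgeR adjusted p = 0.85). Whether such pairs differ from each other was not tested.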

How the data were processed

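The 12 RNA libraries were analysed, and the 13 CUT&RUN samples were not analysed here. Per the labels' protocols, RNA was poly(A)-selected and the library kit was directional. The values are the authors' raw counts, deposited as whole numbers per gene and library without normalization. featureCounts 2.0.8, limma 3.58.1 and hg38 are named in the submitters' processing notes. Not given in the sources used here are the aligner, annotation and strand setting. The RNA labels give the prexasertib dose in mM where the chromatin labels use nM, so no dose is used. Groups follow the sample titles. Of 28395 gene IDs, 27745 matched RefSeq's gene table (GRCh38.p14), which gave symbols, biotypes and coordinates; it holds no transcript lengths, so levels are not compared between genes.

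Counts were fitted with edgeR 4.0.16 in R 4.3.3: filterByExpr by group (a count of 10, a total of 15; 14658 genes with 99.9% of the counts), TMM scaling, a robust quasi-likelihood fit with 1 term per group over all 12 libraries, and Benjamini-Hochberg adjustment over all genes tested. Every adjusted p is from this test unless another fit is named, and a gene was called under 0.05. Levels are CPM on TMM-scaled library sizes, with a prior count of 2 on the log2 scale. Between libraries of a group the biological coefficient of variation was 12.8%. The same code was tested on simulated counts. Counting intervals cover counting error only, since reads carry no molecular identifiers and are not independent.

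Members, lists and tests were chosen with earlier results of these data known. Members named are, per pairwise comparison, up to 6 with the largest change and 4 with the smallest adjusted p in each direction, among those called with groups that do not overlap; the 10 of highest total count; examples at the threshold; those listed for a described role; and nearest coding neighbours. LINC03098 in the 5-Ph-IAA comparison, the pairs of neighbouring members, the 3 with divergent starts and the neighbours of called members were singled out after their values were seen. The libraries numbered 3 deviated together from their group means (Pearson r across genes between 0.531 and 0.633 in 6 pairs). Same-numbered pairs had 0.22 to 0.348 for number 1 and 0.261 to 0.402 for number 2. These lay mostly within the range for different numbers, -0.503 to 0.366, so pairing within numbers 1 and 2 was not apparent. The replicate number was also fitted as a block. Alternatives were DESeq2 1.42.0, its size factors, library size alone, no filter or CPM of 1 in 3 libraries, a member minimum of 30 counts, wider level bins, each library left out, and the libraries numbered 3 left out.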

Additional observations from a re-analysis of the deposited data

How the results depend on the processing

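No alternative turned the sign of a named call, but the balance of calls for prexasertib against DMSO, 0 higher and 3 lower, moved to more higher than lower under 2 settings. With the replicate block the counts were 9 higher and 8 lower for prexasertib against DMSO, 51 and 4 for 5-Ph-IAA against DMSO, 32 and 3 for both drugs against prexasertib, 3 and 4 for both drugs against 5-Ph-IAA, and 8 lower for both drugs against DMSO. Leaving out the libraries numbered 3 of every group gave 7 and 6, then 40 and 0, 27 and 3, 3 and 4, and 41 and 7 in the same order. No share over all genes is given for that setting, so its counts are not read against a background. Library size alone gave 43 higher for 5-Ph-IAA against DMSO, 1 lower for both drugs against 5-Ph-IAA and 2 lower for both drugs against DMSO. The DESeq2 test gave 1 higher for prexasertib against DMSO and 1 higher for both drugs against 5-Ph-IAA. The cause was not tested for any of these. Its size factors, both filters, the member minimum of 30 counts and the wider bins kept the counts within 1.5 times. With that minimum, however, the share called higher was 25% of 92 members in 5-Ph-IAA against DMSO (15.7% of 178), 18.5% in both drugs against prexasertib (11.2%) and 30.4% in both drugs against DMSO (20.8%). Members such as LINC01273 and LINC01647, called higher, reached 30 counts only in libraries with 5-Ph-IAA. The larger shares are thus not independent of the minimum, and no share over all genes under it is given.

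Over all comparisons the block ended 0 calls of named members and added 36, of which those not given with the results follow, with edgeR adjusted p under the block. For prexasertib against DMSO they were LINC00963 (0.0066), LINC00294 (0.010), LINC01000 (0.017), LINC01061 (0.031), LINC00942 (0.033), LINC01913 (0.039) and LINC00662 (0.039). For 5-Ph-IAA against DMSO they were LINC01000 (0.0046), LINC00294 (0.015), LINC01843 (0.034), LINC02902 (0.035) and LINC00706 (0.0497). For both drugs they were LINC01433 (8.9e-05), LINC00467 (0.0018), LINC00707 (0.0021), LINC00689 (0.0080), LINC00624 (0.0092) and LINC01000 (0.048) against prexasertib, and LINC00205 (0.00083), LINC00942 (0.024) and LINC00294 (0.040) against 5-Ph-IAA. Against DMSO they were LINC01433 (4.4e-05), LINC00963 (0.013), LINC00261 (0.018), LINC00673 (0.019), LINC00472 (0.020), LINC00511 (0.025), LINC00623 (0.032) and LINC01204 (0.047).

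Leaving out 1 library at a time gave 0 to 1 higher and 1 to 3 lower for prexasertib against DMSO, 17 to 31 and 0 for 5-Ph-IAA against DMSO, 12 to 23 and 0 to 1 for both drugs against prexasertib, 0 and 0 to 1 for both drugs against 5-Ph-IAA, 20 to 38 and 1 to 5 for both drugs against DMSO, and 0 for the interaction. Of 408 such refits of the named calls, 62 lost the threshold; they concern LINC00294, LINC00623, LINC00624, LINC00706, LINC01000, LINC01204, LINC01474, LINC01647, LINC01843 and LINC01913, with adjusted p up to 0.16. Most members have few counts, so a call missing at this depth does not show that a level stayed the same.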
